A study of Mus musculus with 80 samples.

Results

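Cholesterol synthesis and transport was followed through 31 genes, chosen by name from the 32764 gene rows of the count files, in 4 mouse tissues: liver, muscle, brown fat (BAT) and the white fat of the inguinal depot (iWAT). They comprised 7 enzymes of the mevalonate arm, 11 enzymes of the sterol arm, 4 sterol sensing genes, 2 genes of sterol transfer and receptor turnover, 4 liver X receptor (LXR) and efflux genes and 3 esterification genes. All 31 were present in the files and passed the filter on low counts in each tissue, Soat2 in BAT only through its UCP1 KO and dKO libraries. The samples came from wildtype (WT) mice, FGF21 KO mice, UCP1 KO mice and UCP1/FGF21 double knockout (dKO) mice, with 5 libraries per genotype and tissue. The animals were male, homozygous and on a C57BL/6J background, and the deletions were carried by the whole body. They were bred and weaned at 30 °C, and at 10 to 12 weeks of age moved to room temperature and given a high fat diet for 3 weeks, in every group including WT. One label field spells the second gene of the dKO as FGF12, and the Fgf21 values below bear on that spelling.

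Animal cells build cholesterol from acetyl-CoA. The mevalonate arm makes isoprenoid units, which Fdft1 joins to squalene, and the sterol arm turns squalene into cholesterol through lanosterol. When sterol in the endoplasmic reticulum is low, SCAP escorts the transcription factor encoded by Srebf2 out of the INSIG proteins' hold, and genes of the pathway are transcribed. When sterol is high, oxysterols activate the LXR proteins, which raise export through ABCA1 and ABCG1, and SOAT enzymes store the excess as esters. Liver is a main site of synthesis, whereas brown fat is known for burning lipid through UCP1.

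The libraries held 28691377 to 50380696 counts each, and no 2 files held the same values. In BAT, Fgf21 lay at 0.228 to 0.290 CPM (counts scaled to the library size) in WT, at 9.47 to 35.2 CPM in UCP1 KO, and at no more than 0.0439 CPM in FGF21 KO and 0.0707 CPM in dKO. Ucp1 lay at 530 to 1238 CPM in UCP1 KO and 1046 to 1883 CPM in dKO, below the 3205 to 8074 CPM of the other genotypes, although gene counts also hold reads outside a deleted part. In iWAT, Ucp1 counts were higher in UCP1 KO, at 102 to 735 CPM, than in WT, at 2.64 to 16.7 CPM, so they do not check the labels there. Marker scores, the mean log2 CPM of 8 to 10 genes, matched the tissues: the hepatocyte score was 12.0 to 12.4 in liver, the skeletal muscle score 13.4 to 13.8 in muscle and the brown fat score 8.13 to 9.13 in BAT. A skeletal muscle score above 6 was found in 5 of the 20 BAT libraries, 2 of UCP1 KO and 3 of dKO. In iWAT, 9 of 20 libraries carried a lymph node score of 6.45 to 7.67, against -0.61 to 1.61 in the other 11.

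In WT mice, liver held the highest level of 24 of the 31 genes, including 16 of the 18 synthesis enzymes. In RPKM, the CPM per kilobase of the longest coding transcript, the enzyme with the highest liver level was Fdps, which makes farnesyl pyrophosphate, at 305 ± 32.8 (SD, n = 5). Its level was 48.4 ± 8.64 RPKM in BAT, 28.9 ± 10.5 RPKM in iWAT and 18.8 ± 1.85 RPKM in muscle. Liver was above the other tissues by more than the spread, and Fdps differed in each of the 6 tissue pairs. Of all genes tested in the WT fit, 67.3% were called between liver and BAT by the quasi-likelihood test of edgeR at a Benjamini-Hochberg adjusted p under 0.01, the threshold for a call throughout. Of the members, 24 were called higher in liver than in BAT and 4 lower, where 32.5% and 34.8% of all genes were. Against iWAT 27 were higher in liver and 4 lower, beside 74.9% of all genes called (36.6% higher, 38.2% lower). Against muscle 28 were higher and 1 lower, beside 73.8% called (35.2% higher, 38.6% lower). The median log2 difference over the members was 2.13, 2.51 and 3.48 against BAT, iWAT and muscle, where the median of all genes lay within 0.1 of 0.

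The differences were widest in esterification. Soat2, which makes cholesteryl esters in hepatocytes and enterocytes, had 28.6 ± 2.92 RPKM in liver, 0.180 ± 0.102 RPKM in iWAT, 0.0778 ± 0.0225 RPKM in muscle and 0.0280 ± 0.0104 RPKM in BAT. Lcat, the secreted enzyme that esterifies cholesterol on lipoproteins, had 282 ± 12.5 RPKM in liver and 0.563 to 1.05 RPKM on average elsewhere. Both were liver genes in WT mice, with log2 differences of 7.28 to 9.94 against the other tissues. Soat1, the widely expressed partner of Soat2, was not highest in liver: its log2 level in liver was 2.13 above that in BAT but 1.14 below that in iWAT, and both differences were called. Like Soat2, it had its lowest level in BAT. The 3 esterification genes were the members with the lowest level per length in WT brown fat.

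BAT held the highest level of 4 members. Insig1, which retains SCAP in the endoplasmic reticulum, led the list in BAT with 183 ± 48.9 RPKM, but its difference from liver did not pass the test (adjusted p 0.0545 by edgeR). Acat2, the cytosolic thiolase that opens the pathway and is not the enzyme encoded by Soat2, had 80.3 ± 4.72 RPKM in BAT and 40.8 ± 6.14 RPKM in liver, a log2 difference of 0.98 that was called. Pmvk, which adds the next phosphate to phosphomevalonate, had 94.8 ± 15.4 RPKM in BAT and 70.9 ± 9.87 RPKM in liver and was not called. Nr1h2, which encodes LXR beta, was higher in BAT than in each other tissue. Between BAT and iWAT, 12 members were higher in BAT and 4 in iWAT, beside 60.7% of all genes called (28.0% higher in BAT, 32.7% in iWAT). Muscle differed from BAT in 25 members and from iWAT in 27, where 64.1% and 74.4% of all genes were called. The 4 higher in iWAT were Abcg1, an exporter of cholesterol to lipoproteins, Mylip, which drives degradation of lipoprotein receptors, Soat1 and Soat2. Reads of Acat2 and of Idi1 can be shared with their near-identical neighbours and are therefore less certain. The WT iWAT libraries included 2 with a high lymph node score.

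**Figure D1:**
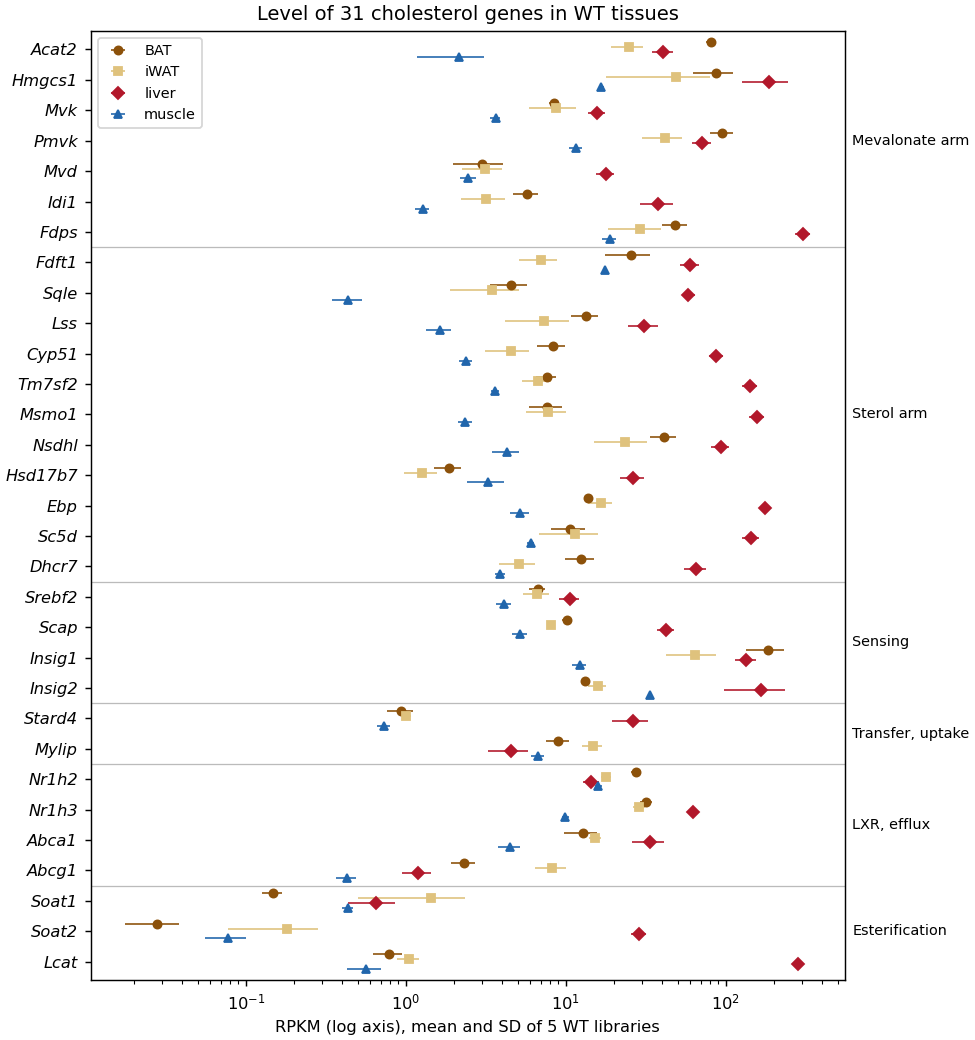
Level of the 31 genes in WT tissues, in RPKM on a log axis, grouped by role. Points are means and bars SDs of 5 libraries. Liver lies to the right for most enzymes, while Acat2, Pmvk and Insig1 have their highest mean in BAT, and Soat2 has its lowest there.

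The study set out to find what lies behind the resistance to obesity of mice that lack UCP1, and UCP1 KO against WT measures UCP1 loss with FGF21 in place. In BAT, that loss went with higher expression of both SOAT genes, of 5 of the 18 synthesis enzymes and of Abcg1, and with lower expression of Ebp and Nr1h2. In all, 10 of 31 members were called in UCP1 KO against WT, or 32.3%, where 25.2% of all 15729 genes tested were. By direction, 8 members were higher, or 25.8%, and 2 lower, or 6.45%, beside 13.8% and 11.4% of all genes. For 9 of them the libraries of the 2 genotypes did not overlap, 29.0% of the members against 23.5% of all genes. The median log2 fold change was 0.14 over the members and 0.01 over all genes. These shares are a description, and nothing particular to the list is read from them. With a score of 8 macrophage markers as a covariate, a choice made after seeing the data, 4 members were called, beside 6.01% of all genes.

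Soat2 changed most. It had 1 to 3 counts per library in WT, and 87, 135, 231, 462 and 540 counts in the 5 UCP1 KO libraries. In CPM, UCP1 KO held 2.33, 3.37, 4.71, 8.99 and 11.8, while WT ranged from 0.0304 to 0.0976. No WT library came near any UCP1 KO library. Pooled over libraries, 1455 counts in UCP1 KO faced 10 in WT, a ratio of 101 with a 95% counting interval of 54.8 to 211. FGF21 KO had 1 to 5 counts per library and dKO had 96, 109, 124, 142 and 146. The ratio between those genotypes was 31.3, with an interval of 19.1 to 55.1. These intervals cover counting error only. The fitted log2 fold changes were 6.53 (SE 0.48, adjusted p 4.07e-08, edgeR) in UCP1 KO against WT and 4.93 (SE 0.45, adjusted p 8.10e-07, edgeR) in dKO against FGF21 KO. DESeq2 gave 6.61 and 4.99. With 1 to 5 counts in each reference library, none of these is a bound. Soat2 passed the low-count filter in BAT only through UCP1 KO and dKO, and edgeR without that filter gave 6.53 and 4.94. Despite the rise, the highest BAT library stayed below the lowest liver library, which held 28.7 CPM, each tissue having been scaled on its own. Soat2 lies at chr15:102150526-102163469 on the plus strand (GRCm38).

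Soat1, which esterifies cholesterol in most cell types, had 1.58, 1.23, 1.36, 1.27 and 1.07 CPM in WT. UCP1 KO had 2.41, 6.60, 2.34, 4.13 and 3.73 CPM. All 5 UCP1 KO libraries were above all WT libraries (log2 fold change 1.56, SE 0.26, adjusted p 1.45e-04, edgeR). FGF21 KO ranged from 1.13 to 2.25 CPM and dKO from 2.36 to 3.53 CPM, which also did not overlap. That difference of 0.74 on the log2 scale was not called (adjusted p 0.0347, edgeR). The macrophage score moved in the same direction, from 3.28 to 3.64 among WT libraries to 3.58 to 5.08 among those of UCP1 KO. In a fit with this score as a covariate, the Soat1 fold change was 0.74 on the log2 scale and not called (adjusted p 0.0641, edgeR). The libraries are of whole tissue, so a change in RNA per cell and a change in the share of a cell type cannot be told apart for any gene here.

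In the sterol arm, Sqle, the squalene epoxidase that controls flow into sterols, rose by 3.60-fold. Its WT libraries held 17.5, 16, 11.8, 12.0 and 8.89 CPM. The UCP1 KO libraries held 20.5, 48.3, 76.5, 43.7 and 48.5 CPM. The groups did not overlap, with the lowest UCP1 KO library just above the highest WT library (log2 fold change 1.85, SE 0.30, adjusted p 1.26e-04, edgeR). FGF21 KO held 19.1, 27.2, 17.4, 18.2 and 13.3 CPM, and dKO 52.9, 61.1, 60.3, 25.2 and 64.5 CPM. The dKO library at 25.2 CPM overlapped with the highest FGF21 KO library, and the rest lay far above (log2 fold change 1.47, SE 0.29, adjusted p 0.00145, edgeR). Sqle lies at chr15:59315077-59331192 on the plus strand.

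Hsd17b7, which reduces the 3-keto group of a sterol intermediate, had 10.0, 10.3, 10.4, 6.57 and 7.79 CPM in WT. In UCP1 KO it had 15.9, 20.1, 24.4, 24.5 and 21.0 CPM. The difference, 1.24 on the log2 scale (SE 0.19, adjusted p 9.07e-05, edgeR), left a gap between the groups. FGF21 KO ranged from 9.98 to 16.7 CPM and dKO from 17.2 to 35.5 CPM, again with no overlap (log2 fold change 1.06, SE 0.19, adjusted p 6.22e-04, edgeR). Lss, the cyclase that makes lanosterol, ranged from 51.2 to 84.1 CPM in WT and from 91.1 to 161 CPM in UCP1 KO. It rose by 1.02 on the log2 scale there and by 0.74 in dKO against FGF21 KO, called in both by edgeR (adjusted p 1.58e-04 and 0.00359). Lss overlaps a gene on the opposite strand. The second call was lost when any of dKO libraries 2 and 5 or FGF21 KO libraries 4 and 5 was left out, where the adjusted p reached 0.0120.

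In the mevalonate arm, Mvd, which makes isopentenyl pyrophosphate, had 8.12, 6.78, 5.31, 4.07 and 3.53 CPM in WT. In UCP1 KO it had 6.36, 21.3, 24.7, 14.6 and 8.99 CPM. UCP1 KO library 1 lay within the WT range and the other 4 above it (log2 fold change 1.45, SE 0.36, adjusted p 0.00389, edgeR). The range was 4.94 to 12.6 CPM in FGF21 KO and 8.67 to 23.8 CPM in dKO, and the difference of 1.11 on the log2 scale was not called by edgeR (adjusted p 0.0256) but was by DESeq2 (1.12, adjusted p 0.00626) and, in BAT libraries with a skeletal muscle score of at most 6, by edgeR (1.48, adjusted p 0.00599). That subset was chosen after seeing the data. The Mvd call was lost without WT library 3, 4 or 5 or UCP1 KO library 2 or 3, and in 4 other edgeR fits. The log2 fold change was then 1.46 with only the 2 genotypes fitted (adjusted p 0.0132), 1.30 when the score of skeletal muscle entered the fit (adjusted p 0.0263) and 1.85 with the macrophage score (adjusted p 0.0144), but 0.85 in the libraries with a low skeletal muscle score (adjusted p 0.0462). Mvd lies on chromosome 8, 39.1 Mb from Ucp1. Fdps ranged from 55.9 to 85.2 CPM in WT and from 98.1 to 154 CPM in UCP1 KO, and its rises of 0.69 and 0.77 on the log2 scale were called in both comparisons by edgeR (adjusted p 0.00418 and 0.00345). Each was lost on leaving out any of 3 libraries, namely WT library 3 or 5 or UCP1 KO library 3 for the former, and dKO library 2 or FGF21 KO library 1 or 4 for the latter. With the macrophage score as a covariate the former was 0.91 and not called (adjusted p 0.0125, edgeR).

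On the efflux side, Abcg1 had 11.9, 16.8, 16.9, 12.3 and 13.1 CPM in WT. It had 29.3, 32.3, 24.3, 28.4 and 26.9 CPM in UCP1 KO, about 1.99-fold more, with every library above the WT range (log2 fold change 0.99, SE 0.14, adjusted p 4.70e-05, edgeR). In FGF21 KO it ranged from 15.5 to 18.3 CPM and in dKO from 13.4 to 26.1 CPM. These overlapped, and the log2 fold change of 0.37 was not called (adjusted p 0.0624, edgeR). It was called in the libraries with a low skeletal muscle score, at 0.60 (adjusted p 0.00351, edgeR), and in 1 of the 20 fits that left out a library, that without dKO library 3. With the macrophage score as a covariate, the Abcg1 change in UCP1 KO was 0.78 on the log2 scale (adjusted p 0.0115, edgeR). Abca1, the other exporter in the list, differed by -0.05 and -0.04 on the log2 scale in the 2 comparisons. Nr1h2 fell from 51.0 to 61.0 CPM in WT to 40.1 to 46.1 CPM in UCP1 KO (log2 fold change -0.42, SE 0.08, adjusted p 3.92e-04, edgeR). With the macrophage score as a covariate it was at -0.45 and not called (adjusted p 0.0137, edgeR). It was also lower in dKO, at -0.30 on the log2 scale (adjusted p 0.00802, edgeR), but 13 of the 20 fits that left out a library lost that call. So did 6 other edgeR fits, with an adjusted p from 0.0127 with RLE factors to 0.134 in the libraries with a low skeletal muscle score, where the value was -0.20. Nr1h2 is 1.06 Mb from Fgf21 on chromosome 7. By label the genotypes within each of these comparisons are alike at Fgf21, while the DNA around it was not examined. Nr1h3, which encodes LXR alpha, was at -0.25 and -0.22 on the log2 scale and was not called.

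**Figure D2:**
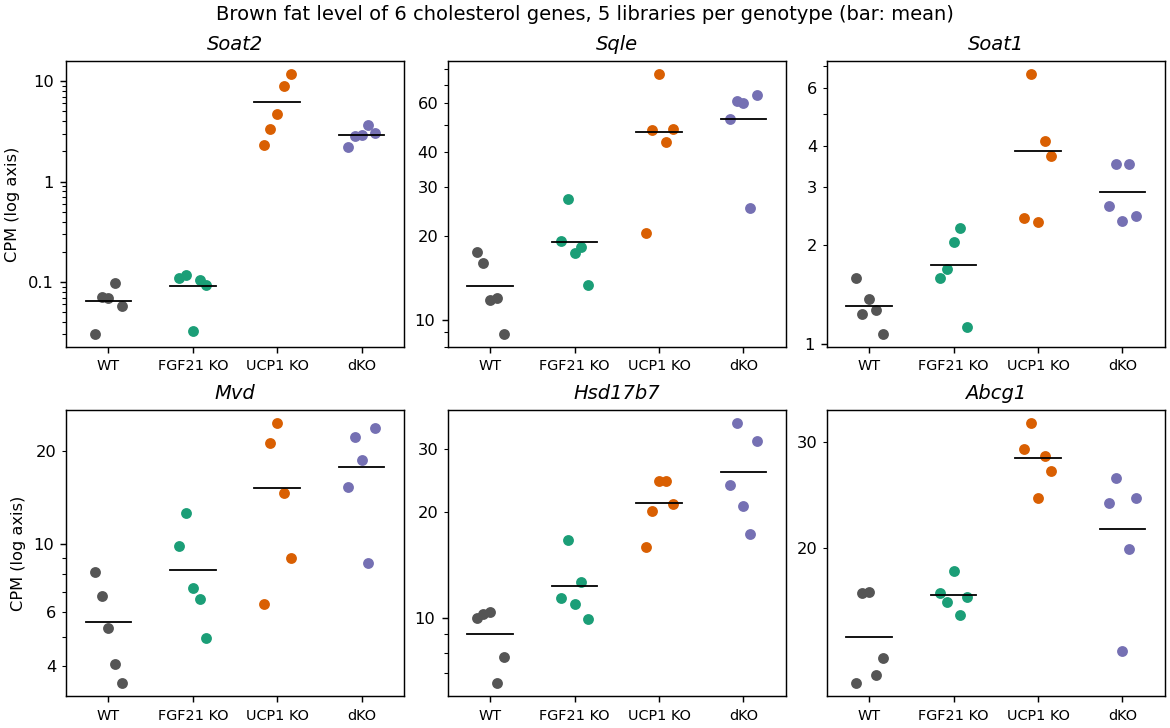
CPM (log axis) of Soat2, Sqle, Soat1, Mvd, Hsd17b7 and Abcg1 in BAT, one point per library, 5 per genotype, with bars at the means. The Soat2 points of UCP1 KO and dKO, at 2.21 to 11.8 CPM, lie far above those of WT and FGF21 KO, at 0.0304 to 0.118 CPM, whereas the other genes are separated by smaller steps.

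The synthesis enzymes did not move as a block in BAT. Of 18, 5 rose (Sqle, Mvd, Hsd17b7, Lss and Fdps), Ebp, the sterol isomerase, fell by 0.33 on the log2 scale (adjusted p 8.35e-04, edgeR), and 12 did not pass the edgeR test. The Ebp call was lost in the libraries with a low skeletal muscle score (-0.28, adjusted p 0.0137, edgeR) and with the macrophage score as a covariate (-0.30, adjusted p 0.0387, edgeR). Fdft1, whose product feeds Sqle, was at -0.92 on the log2 scale (SE 0.28, adjusted p 0.0142, edgeR). Its CPM was 57.3 to 145 in WT and 82.3, 54.7, 66.0, 43.3 and 19.0 in UCP1 KO, where 3 of 5 libraries were below the WT range. Fdft1 overlaps Ctsb on the opposite strand. Idi1, the isomerase of the isoprenoid units, was at -0.62 (adjusted p 0.0194, edgeR) and Dhcr7, which performs a last reduction, at -0.51 (adjusted p 0.0186, edgeR). On the other side, Sc5d was at 0.77 and Cyp51 at 0.57 without a call by edgeR. DESeq2 called Cyp51 at 0.58 and Fdft1 at -0.90 (adjusted p 0.00293 and 0.00383), and edgeR with RLE factors called Cyp51 (adjusted p 0.00969), which overlaps Akap9 on the opposite strand. In the libraries with a low skeletal muscle score, edgeR called Idi1, Dhcr7 and Mvk lower, at -0.91, -0.76 and -0.44. At the entry, Acat2, Hmgcs1, Mvk and Pmvk lay between -0.26 and 0.23. Neighbouring steps of the pathway thus had fold changes of opposite sign, but of the lower ones only that of Ebp was called by edgeR over all libraries.

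None of the 4 sensing genes was called in UCP1 KO against WT. Srebf2 was at 0.16, Scap, the escort protein, at -0.12, Insig1 at 0.31 and Insig2 at -0.14 on the log2 scale, with adjusted p from 0.117 to 0.314 by edgeR. Stard4, a carrier that moves sterol between membranes, was at 0.16 and Mylip at 0.15, and Lcat at 0.13, also not called. With FGF21 absent the sensing genes lay between -0.09 and 0.12. The mean of the 18 enzymes was 5.20 ± 0.22 log2 CPM in WT, 5.38 ± 0.16 in FGF21 KO, 5.44 ± 0.28 in UCP1 KO and 5.66 ± 0.26 in dKO (SD, n = 5).

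dKO against FGF21 KO asks about UCP1 loss where FGF21 is absent, and shares no library with UCP1 KO against WT. There 6 members were called, or 19.4%, where 13.5% of all genes were. Without FGF21 KO library 4 the count was 3, beside 8.77% of all genes. Soat2, Sqle, Hsd17b7, Lss and Fdps rose and Nr1h2 fell, beside 6.74% of all genes higher and 6.80% lower, and each of the 6 was also called in the same direction in UCP1 KO against WT. For 6 members the libraries did not overlap, 19.4% against 18.6% of all genes. The effect of UCP1 loss was not shown to depend on FGF21 for any member: the interaction called 0 members by edgeR, as by DESeq2, with 0% of all genes called by edgeR. At an unadjusted p under 0.05 it had 3 members, or 9.68%, beside 5.37% of all genes. UCP1 KO against dKO called 0 members by both tools, with 0.0636% of all genes called by edgeR and 0.356% by DESeq2. By edgeR it had 5 members, or 16.1%, at an unadjusted p under 0.05, beside 12.9% of all genes. The member nearest to a call was Soat2, at 1.09 on the log2 scale (SE 0.32, adjusted p 0.203, edgeR). In the 3 UCP1 KO and 2 dKO libraries with a low skeletal muscle score, a choice made after seeing the data, that comparison called Idi1, Mvk and Pmvk lower in UCP1 KO, at -1.24, -0.72 and -1.21 on the log2 scale, where 1.29% of all genes were called and 0.696% were lower. FGF21 KO against WT called 0 members by both tools, with 0% of all genes called by edgeR and 0.191% by DESeq2. By edgeR it had 3 members, or 9.68%, at an unadjusted p under 0.05, beside 8.55% of all genes.

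**Figure D3:**
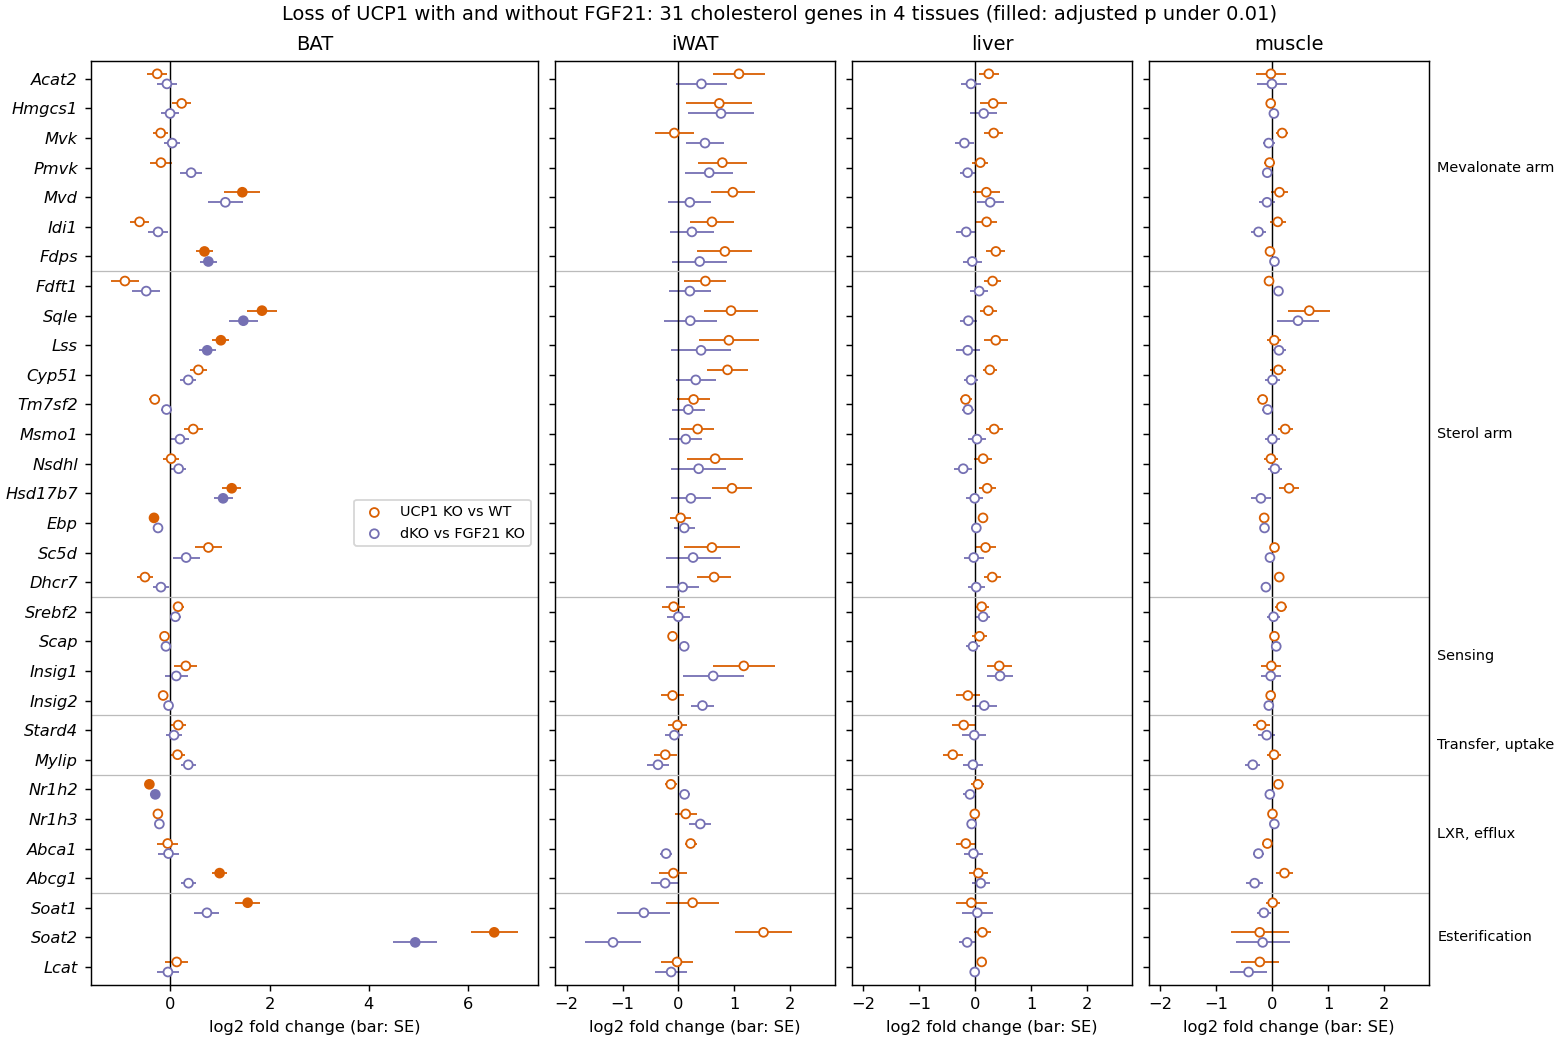
Log2 fold change of each gene for UCP1 KO against WT and dKO against FGF21 KO in 4 tissues. Bars are standard errors, filled points have an edgeR adjusted p under 0.01, and the axis of BAT is wider than the others. Filled points appear in BAT only, 10 for UCP1 KO against WT and 6 for dKO against FGF21 KO.

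Related genes outside the 31 were taken from lists for bile acid synthesis, lysosomal and oxysterol handling, and secretion, 19 genes in all of which 15 could be tested in BAT. Of the 8 lysosomal and oxysterol genes, 4 rose in UCP1 KO against WT and none fell, beside 13.8% of all genes higher and 11.4% lower. They were Ch25h and Cyp46a1, which make side-chain oxysterols, at 1.98 and 1.36 on the log2 scale, Lipa, the lysosomal lipase that frees cholesterol from esters, at 0.65, and Osbp, an oxysterol binding protein, at 0.39. Ch25h and Cyp46a1 averaged 0.550 and 1.12 CPM in UCP1 KO, so they stayed low. Of 6 tested bile acid genes, 1 was called, Hsd3b7, which acts on sterol intermediates of bile acid synthesis and fell by 0.84 on the log2 scale. In dKO against FGF21 KO, Cyp46a1, Lipa and Osbp rose and Hsd3b7 fell, beside 6.74% of all genes higher and 6.80% lower.

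Promoters of 5 genes are given because they belong to the results above: Mvd, Lss and Hsd17b7, which rose, Ebp, which fell, and Hmgcs1, the enzyme before the committed step, the only one of the 25 members with a promoter at hand that held the one form of sterol element searched. Each is the 250 bases before the RefSeq start (GRCm38.p6), 5′ to 3′. Capitals mark ATTGG or its reverse complement CCAAT, the core bound by NF-Y, a partner of sterol regulatory factors, and in Hmgcs1 also TCACCCCAC, a form of the sterol element TCACNCCAC. The windows are chr13:119690101-119690350 on the plus strand, chr8:122443423-122443672 on the minus strand, chr10:76531355-76531604 on the plus strand, chr1:169969206-169969455 on the minus strand and chrX:8193513-8193762 on the minus strand.
Hmgcs1: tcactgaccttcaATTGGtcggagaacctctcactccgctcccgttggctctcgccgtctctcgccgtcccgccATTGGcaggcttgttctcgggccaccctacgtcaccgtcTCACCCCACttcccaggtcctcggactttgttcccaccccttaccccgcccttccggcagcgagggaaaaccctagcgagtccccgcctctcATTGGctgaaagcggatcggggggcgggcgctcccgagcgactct
Mvd: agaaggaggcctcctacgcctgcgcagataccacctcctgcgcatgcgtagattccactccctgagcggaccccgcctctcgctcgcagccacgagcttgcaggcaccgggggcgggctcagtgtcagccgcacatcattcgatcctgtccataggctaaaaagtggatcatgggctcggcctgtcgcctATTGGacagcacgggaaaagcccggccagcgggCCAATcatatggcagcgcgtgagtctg
Lss: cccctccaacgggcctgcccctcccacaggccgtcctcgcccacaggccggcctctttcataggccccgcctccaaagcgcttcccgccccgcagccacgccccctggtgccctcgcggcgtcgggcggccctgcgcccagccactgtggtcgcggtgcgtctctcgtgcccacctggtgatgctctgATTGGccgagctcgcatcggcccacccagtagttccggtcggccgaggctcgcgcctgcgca
Hsd17b7: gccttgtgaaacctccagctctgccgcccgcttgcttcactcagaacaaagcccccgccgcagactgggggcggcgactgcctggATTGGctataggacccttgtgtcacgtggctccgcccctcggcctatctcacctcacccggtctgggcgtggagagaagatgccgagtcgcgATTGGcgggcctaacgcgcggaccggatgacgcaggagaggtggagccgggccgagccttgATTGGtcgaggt
Ebp: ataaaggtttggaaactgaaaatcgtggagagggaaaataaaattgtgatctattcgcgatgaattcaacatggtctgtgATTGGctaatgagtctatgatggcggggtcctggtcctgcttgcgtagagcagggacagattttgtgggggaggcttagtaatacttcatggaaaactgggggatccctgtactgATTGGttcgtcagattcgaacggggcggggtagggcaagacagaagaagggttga
The 2 strands were searched for each motif. ATTGG was found in 3 places in Hmgcs1 and Hsd17b7, 2 in Mvd and Ebp and 1 in Lss, so genes that rose and the gene that fell both held it.

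RefSeq promoters were at hand for 25 of the 31 members. From 250 bases before to 50 after the start, ATTGG occurred in 20 of 25, and in 14 of the 15 synthesis enzymes with a promoter, the exception being Acat2. It occurred in 41.1% of all 27025 genes with a promoter and in 42.4% of those tested in BAT. Counting the 250 bases before the start only, the members were the same in number and the share of all genes was 37.5%. Among the 10 other members 6 held it, with Srebf2, Insig1 and Insig2 among them. The promoters of Sqle, Fdps, Fdft1, Soat2, Stard4 and Abcg1 were not searched. Of the 25 that were, TCACNCCAC was found in that of Hmgcs1 only, and in 1.44% of all genes; other forms of the element were not looked for. A match describes letters in this window and not a bound site.

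In iWAT 0 members were called by edgeR in any genotype comparison, as by DESeq2. In UCP1 KO against WT, 0.61% of all 17380 genes were called. At an unadjusted p under 0.05 were 7 members, or 22.6%, beside 14.7% of all genes. The synthesis enzymes had positive values in 17 of 18 cases, with a median log2 fold change of 0.69, where all genes had -0.03. Their levels varied together from library to library, as given below, so they are not 18 separate cases. Values were also positive for 18 of 18 in dKO against FGF21 KO. In liver they were positive for 17 of 18 in UCP1 KO against WT and in FGF21 KO against WT. None of the 18 passed the test in iWAT of UCP1 KO against WT, and the lowest adjusted p among them was 0.189, for Hsd17b7 at 0.96 on the log2 scale (SE 0.36, edgeR). Soat2 was at 1.52 (SE 0.51, adjusted p 0.133, edgeR), with 0.375 to 1.28 CPM in WT and 0.922 to 4.10 CPM in UCP1 KO. In dKO against FGF21 KO the enzymes had a median of 0.25, with 0.0115% of all genes called. The calls over all genes were 0.466% for UCP1 KO against dKO, 0.00575% for FGF21 KO against WT and 0% for the interaction. At an unadjusted p under 0.05, these 4 comparisons had 1, 4, 5 and 2 members, or 3.23%, 12.9%, 16.1% and 6.45%, beside 8.62%, 14.2%, 17.4% and 9.98% of all genes.

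The enzyme levels of iWAT moved with the lymph node score. In the 11 libraries where lymph node markers were low the mean of the 18 enzymes was 5.06 to 6.46 log2 CPM, with a median of 5.84. In the 9 with a high score it was 4.42 to 5.17, with a median of 4.85. The ranges overlapped only at their ends. Soat1 ran the other way, with 8.71 to 25.2 CPM at a low score and 22.5 to 58.2 CPM at a high score. Abcg1 did so without overlap, with 54.4 to 81.2 CPM against 89.6 to 135 CPM. The low-score libraries were 3 of WT, 1 of FGF21 KO, 4 of UCP1 KO and 3 of dKO, so the score and the genotype were not balanced. Within the low-score libraries, as with the score as a covariate, 0 members were called by edgeR in each genotype comparison, where the lone FGF21 KO library was assumed to vary like the rest. The skeletal muscle score of iWAT also varied, from 1.17 to 10.8, and with it as a covariate 0 members were called too. The shares of all genes called in these covariate fits are not given here, so the counts of 0 cannot be set against them.

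**Figure D4:**
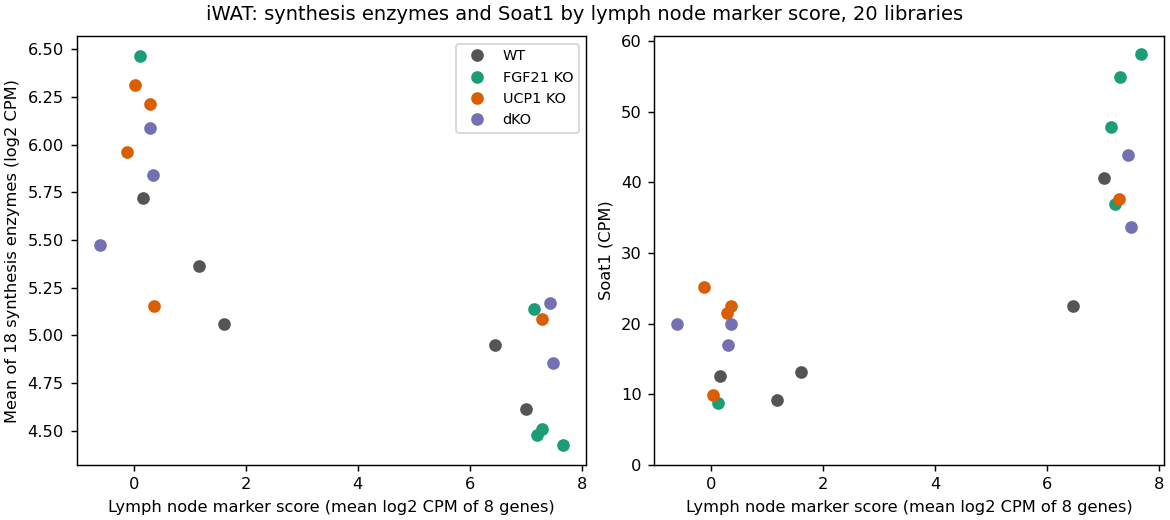
Mean log2 CPM of the 18 synthesis enzymes (left) and CPM of Soat1 (right) against the lymph node marker score of the 20 iWAT libraries, one point per library, coloured by genotype. The 9 libraries with a score of 6.45 to 7.67 have low enzyme means of 4.42 to 5.17 and Soat1 at 22.5 to 58.2 CPM.

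The enzymes varied together from library to library. Around the genotype means, the 153 pairs of synthesis enzymes had a median Pearson r of 0.72 in liver over 20 libraries, with 129 pairs above 0.5, or 84.3%, where 5.82% of all gene pairs were. This is a description over libraries that share preparation and scaling. In BAT the median was 0.45 with 70 pairs above 0.5, and in muscle 0.34 with 39 pairs. The share of all gene pairs above 0.5 was 5.76% and 4.65% there. For iWAT the value is given within the libraries of low and of high lymph node score, 10 and 8 libraries after leaving out genotypes with 1: the medians were 0.86 and 0.79, with 81.0% and 86.9% of pairs above 0.5, against 14.2% and 21.1% of all pairs. Insig1, a regulator and not an enzyme, followed the mean of the enzymes with r of 0.71 in BAT, 0.74 in liver and 0.86 in muscle. In BAT, Fdft1 (r of 0.02 with the mean of the other enzymes) and Ebp (-0.50) stood outside, next to Mvd and Nsdhl at 0.91. Soat1 at 0.09, Soat2 at -0.17 and Abcg1 at 0.03 did not follow the enzymes in BAT. The 13 members outside the synthesis enzymes had a median r between -0.06 and 0.01 with each other in BAT, liver and muscle.

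In liver, where most levels were highest, 0 members were called by edgeR in each genotype comparison, as by DESeq2. UCP1 KO against WT had 0.0694% of all genes called, and fold changes of the members from -0.40 (Mylip) to 0.43 (Insig1) on the log2 scale with a median SE of 0.16. Over all genes, 0.229% were called in FGF21 KO against WT, 0.00694% in dKO against FGF21 KO, 0.00694% in UCP1 KO against dKO and 0% in the interaction. At an unadjusted p under 0.05 were 4 members, or 12.9%, in UCP1 KO against WT, beside 10.2% of all genes, and 2, 0, 2 and 1 members in the other comparisons in that order, beside 7.54%, 6.75%, 8.25% and 5.16% of all genes. Soat2 held 41.8 to 53.3 CPM in WT liver, 44.0 to 49.8 in FGF21 KO, 34.8 to 65.2 in UCP1 KO and 28.7 to 54.1 in dKO, so these ranges overlapped. Sqle overlapped as well, at 105 to 137 CPM in WT and 113 to 173 CPM in UCP1 KO. The mean of the 18 enzymes ranged from 7.05 ± 0.16 log2 CPM in WT to 7.26 ± 0.26 in UCP1 KO (SD, n = 5).

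In muscle 0 members were called by edgeR in each comparison, as by DESeq2. The numbers at an unadjusted p under 0.05 were 0 for UCP1 KO against WT, 2 for dKO against FGF21 KO, 3 for UCP1 KO against dKO, 2 for FGF21 KO against WT and 2 for the interaction, or 0% to 9.68% of the members, beside 9.81%, 7.96%, 11.7%, 12.9% and 7.48% of all genes. Of all genes, 0.0265%, 0.0595%, 0%, 0.00662% and 0% were called at the adjusted threshold. Sqle had the largest value in UCP1 KO against WT, 0.66 on the log2 scale (SE 0.38, adjusted p 0.580, edgeR), at 0.625 to 1.18 CPM in WT and 0.991 to 2.48 CPM in UCP1 KO. Soat2 held 3 to 18 counts in any muscle library, and what size of change could be detected at such counts was not tested. The mean of the 18 enzymes lay between 3.00 and 3.11 log2 CPM in the 4 genotypes.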

How the data were processed

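The files hold HTSeq gene counts for 80 libraries, which the authors made from poly(A) selected, stranded, 100 bp paired-end reads aligned by STAR to mm10, per the labels and methods; the strand option of counting is not given in the sources used here. Deposited counts were used without change except for 1 row without a gene name (1.32e-05% of counts). Members and lists were chosen with earlier results of these data known. Per tissue, genes with a maximum count above 15, a sum above 75 and at most 10 libraries at 0 were fitted over 20 libraries with edgeR 4.0.16 (R 4.3.3), TMM factors and 4 genotype means by the quasi-likelihood test, with Benjamini-Hochberg adjustment over all genes and a threshold of 0.01. WT tissues were compared in a fit of their own. CPM used TMM library sizes and log2 CPM a prior count of 2. Standard errors are the log2 fold change over the root of F. DESeq2 1.42.0 was an alternative, and shares of all genes called are those of edgeR unless DESeq2 is named beside them. Library numbers follow accession order and were not used to pair tissues. No label links libraries of 1 mouse, so the WT tissue fit treats libraries as independent, and p-values cover the spread between samples. Members called in BAT, with the largest change per role up to 6, are given per library. The edgeR and DESeq2 fits were also run on data simulated gene by gene from the spread fitted in BAT. Shared shifts in tissue make-up between libraries were not simulated, so that run does not bear on them.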

Additional observations from a re-analysis of the deposited data

Results flagged for a closer look

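In 40 groups of 5 BAT libraries, the 10 members called in UCP1 KO against WT in 4 genotypes, 3 had a library far from the other 4 by Dixon's ratio; chance alone would be expected to set apart about 1 group in 20 (5%). Fdps in UCP1 KO had its highest library, number 3, at 154 CPM, the next at 110 CPM. Nr1h2 in dKO had its lowest library, number 4, at 35.5 CPM, the next at 43.4 CPM. Soat2 in FGF21 KO had its lowest library, number 3, at 0.0323 CPM, the next at 0.0938 CPM, which rests on 1 against 3 counts. The part of these libraries in the results was not tested beyond leaving each out.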

How the results depend on the processing

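The counts of members called were recomputed with DESeq2, RLE factors, no low-count filter, an adjusted p under 0.05, only the genotypes compared, marker scores as covariates, subsets of libraries and each library left out. Beyond the fits that left out a library, 152 of 155 counts stayed within 1.5 times the reported one. These include counts of 0 that stayed at 0, as in all genotype comparisons of iWAT, liver and muscle. BAT dKO against FGF21 KO reached that limit, from 6 to 9 members with an adjusted p under 0.05, beside 28% of all genes. The 3 that moved were BAT UCP1 KO against WT with an adjusted p under 0.05 (17 members, 40.7% of all genes), the same with the macrophage score as a covariate (4 members, Hsd17b7, Lss, Soat2 and Sqle, and 6.01% of all genes), and BAT UCP1 KO against dKO in libraries with a low skeletal muscle score (3 members, 1.29% of all genes). The last 2 settings were chosen after seeing the data. Of the 6 calls lost with the macrophage score, the fold change of Soat1 went from 1.56 to 0.74 and that of Abcg1 from 0.99 to 0.78 on the log2 scale, while Fdps went from 0.69 to 0.91, Mvd from 1.45 to 1.85, Nr1h2 from -0.42 to -0.45 and Ebp from -0.33 to -0.30. The cause was not tested.

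Leaving out each library gave 9 to 14 members for BAT UCP1 KO against WT, beside 19.6% to 29.8% of all genes. It gave 3 to 7 for dKO against FGF21 KO, beside 8.77% to 16.6% of all genes. The 3 came without FGF21 KO library 4, where 8.77% of all genes were called. The other genotype comparisons gave 0 throughout. WT pairs gave 28 to 30 for liver and BAT, 30 to 31 for liver and iWAT, 28 to 29 for liver and muscle, 16 to 18 for BAT and iWAT, 25 to 27 for BAT and muscle, and 26 to 28 for iWAT and muscle. No fold change of a called member changed sign. Beyond those fits, 160 fold changes were recomputed for the 10 members called in BAT UCP1 KO against WT, in that comparison and in dKO against FGF21 KO, of which 16 lost a call and 7 gained one. Calls gained by other members at the 0.01 threshold were those of Cyp51, Fdft1, Idi1, Dhcr7 and Mvk in UCP1 KO against WT, and of Idi1, Mvk and Pmvk in UCP1 KO against dKO. Soat2, Sqle and Hsd17b7 kept their calls in both BAT comparisons in all 20 fits that left out a library. The share of members with ATTGG was 80% with either window. No paired analysis was made, because the labels carry no replicate numbers. Whether the accession order pairs tissues of the same mice was not tested. Values of Soat2 in BAT of WT and FGF21 KO rest on 1 to 5 counts, and depth limits them.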
